A study of Mus musculus with 38 samples.

Results

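The arrays described here are those of 2 macrophage populations sorted from the ear dermis of untreated mice, P5, which carried MHC class II on the surface, and P4, which did not. Members were chosen by their titles, and 6 of the 38 arrays of the series belong to them, 3 for P4 and 3 for P5. All mice were wild-type C57BL/6 females aged 6 weeks, and the 3 arrays of each group came from 3 independent pools of mice. Source names carry the numbers 1, 2 and 4 for replicates 1, 2 and 3 of P4, of P5 and of the other dermal groups used here, and whether cells of different groups came from the same pool is not stated. Ears were digested with dispase and collagenase 4, and cells were enriched on Percoll and sorted. P4 was CD11b+ CD24- CD64+ Ly6C- CCR2- MHCII-, and P5 differed from it in the gates only by being MHCII+. From 5000 to 10000 sorted cells gave 5 to 20 ng of RNA, which was amplified before hybridisation to Affymetrix Gene 1.0 ST arrays. Levels from 4 further steady-state groups of the same strain, sex and age, each with 3 arrays, are set beside them. These are the dermal P1 (CD64 low, Ly6C high, CCR2+, MHCII-), P2 (CD64+, Ly6C high, CCR2+, MHCII+), P3 (CD64+, Ly6C low, CCR2+, MHCII+) and dendritic cells (DC, CD24- Ly6C- CD64- MHCII+).

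Macrophages settle in the dermis, clear debris and microbes, and in part sit along vessels. MHC class II molecules are made as pairs of alpha and beta chains that travel with the invariant chain to endosomes, are loaded there with peptide, and show it at the cell surface to CD4+ T cells. Their genes are switched on together by the transactivator CIITA, and DC are the cells best known for using them to activate naive T cells.

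Values are log2 intensities, so a difference of 1 is a 2-fold change, and levels are means ± standard deviation (SD) over 3 arrays. Each difference is P5 minus P4 with its standard error (SE) from a limma fit over all 38 arrays, and p is adjusted over 19937 genes. A gene is said to have risen or fallen in P5 at an adjusted p under 0.05. The arrays carry no detection calls. Levels under 4.02, the 40th percentile of all values, are called low signal, and a fold against such a level has no exact size. With 3 arrays against 3 there are 10 splits, and the smallest two-sided p of an exact permutation test is 0.10, so every p rests on the spread that limma pools over groups.

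Between P4 and P5, 98 genes changed, which is 0.492% of the genes tested. Of these, 58 rose in P5 (0.291%) and 40 fell (0.201%). Counts of calls in the gene lists below are to be read beside these shares. The largest rises were those of Ccl17 and Ccl22, which encode chemokines, of Mmp12, an elastase gene, and of H2-Eb1, a class II chain gene. H2-Aa and H2-Ab1, also class II chain genes, rose as well, and AA467197, Klrb1b, Cxcl9, P2ry10, Adam23, Cd7, Il1r2, Cytip and Ccr7 lay between them and H2-Eb1 in size. The genes that fell most included the iron exporter gene Slc40a1, the semaphorin gene Sema6a and the complement receptor gene Vsig4. Changes of 4-fold or more numbered 19 among the rises and 5 among the falls. In 96 of the 98 genes the P4 and P5 arrays did not overlap, against 11.1% of all genes, a count that choosing the genes by these same arrays favours. At an unadjusted p under 0.05 there were 1484 genes (7.44%). When only the 6 arrays were fitted, which leaves 4 residual degrees of freedom, 19 genes passed, 16 rises and 3 falls, and 18 of them were among the 98. With the replicate number as a block in that fit, which leaves 2 degrees of freedom, 0 genes passed and 1579 had an unadjusted p under 0.05.

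**Figure D1:**
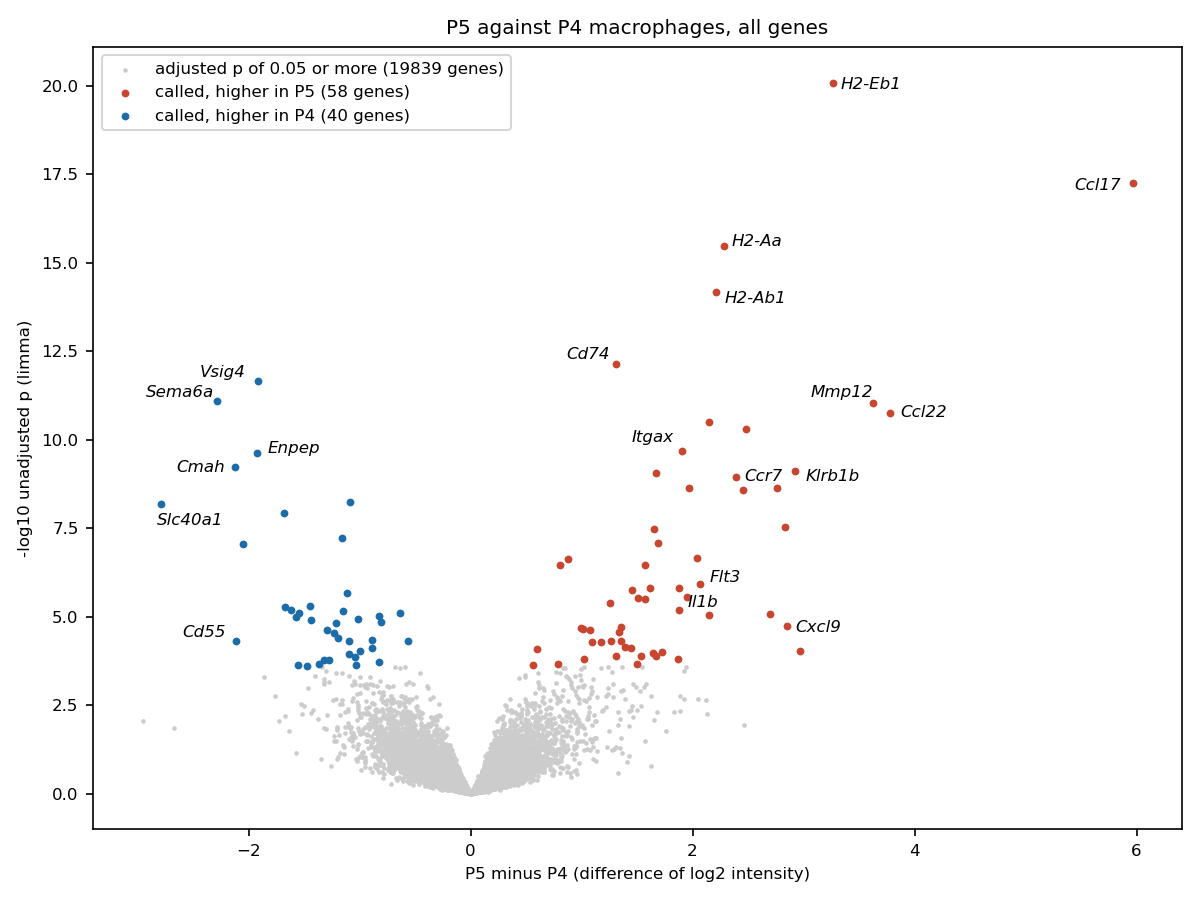
Difference P5 minus P4 in log2 intensity (x) against -log10 of the unadjusted limma p (y) for 19937 genes, with the 58 genes called higher in P5 in red and the 40 called higher in P4 in blue. H2-Eb1 and Ccl17 stand highest, at differences of 3.26 and 5.96, and the falls reach -2.79 at Slc40a1.

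The MHC class II genes come first, since the gate that divides P5 from P4 read their protein and their RNA checks the labels. H2-Eb1, which encodes a class II beta chain, measured 8.92, 8.99 and 8.59 in the P4 arrays and 12.07, 12.02 and 12.20 in the P5 arrays. The groups lay far apart, and the difference was 3.26 (SE 0.13, 9.6-fold, adjusted p = 1.6e-16). H2-Aa, an alpha chain gene, stood at 9.75, 9.90 and 9.90 in P4 and at 12.10, 12.09 and 12.20 in P5, a difference of 2.28 (SE 0.14, 4.85-fold, adjusted p = 2.2e-12). H2-Ab1, its beta partner, measured 9.42, 9.96 and 9.51 in P4 and 11.73, 11.93 and 11.88 in P5 (2.21, SE 0.15, 4.64-fold, adjusted p = 3.4e-11). All 3 genes were well above the low signal level in P4, so that RNA of the class II chains was measured in cells sorted as MHCII-. The P5 levels of H2-Eb1, H2-Aa and H2-Ab1 lay close to those of DC, which were 12.28 ± 0.02, 12.21 ± 0.07 and 12.02 ± 0.08.

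The sequences before the start sites of 2 of these genes are shown because they hold the Y box, an element of class II promoters that the factor NF-Y binds. They come from RefSeq in the build GRCm38.p6, are written 5′ to 3′ in the gene's direction and end at the base before the start site, and capitals mark the letters CTGATTGG. For H2-Aa the window is chr17:34287824-34287943 on the minus strand, with the match at -51. For H2-Eb1 it is chr17:34305747-34305866 on the plus strand, with the match at -62.
H2-Aa: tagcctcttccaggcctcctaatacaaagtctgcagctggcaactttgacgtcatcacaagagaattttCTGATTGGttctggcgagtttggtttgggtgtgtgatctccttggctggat
H2-Eb1: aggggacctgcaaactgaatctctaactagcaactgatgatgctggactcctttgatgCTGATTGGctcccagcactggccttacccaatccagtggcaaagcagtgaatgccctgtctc
On either strand, the 250 bases before the start held these letters in 3.83% of 32851 RefSeq windows and in 3 of 62 windows (4.84%) of the 44 risen genes with an entry, namely those of H2-Aa, H2-Eb1 and Cxcl9. They were in 0 of 37 windows of 28 fallen genes. A match of letters is a description and not evidence of binding.

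Some genes that serve the class II pathway also rose. Ciita, the transactivator, measured 4.74, 4.59 and 4.84 in P4 and 6.23, 6.49 and 6.17 in P5, a rise of 1.57 (SE 0.27, 2.98-fold, adjusted p = 0.0016). Cd74, which encodes the invariant chain, was already among the highest signals in P4, at 11.02, 11.53 and 11.17, and reached 12.54, 12.55 and 12.57 in P5 (1.31, SE 0.11, adjusted p = 2.8e-09). H2-DMa, a chain of the complex that exchanges the invariant chain fragment for peptide, rose by 1.67 (SE 0.19, adjusted p = 1.1e-06), from 9.37 ± 0.13 to 11.03 ± 0.21. These 3 genes showed no overlap between the groups. Of the 12 class II pathway genes measured 6 rose and 0 fell, against 0.291% and 0.201% of all genes. Their median difference was 1.27 beside 0.01 over all genes. Among the 6 that did not pass were H2-Eb2 (1.22, adjusted p = 0.24), H2-Oa (1.05, adjusted p = 0.69) and H2-Ob (0.68, adjusted p = 0.54), of which the last 2 form a complex that restrains peptide exchange. Ctss, whose protease trims the invariant chain, stood at 11.77 in P4 and 11.71 in P5, with a 95% interval of the difference from -0.26 to 0.15. Ifi30, a thiol reductase of antigen processing, differed by 0.34 (adjusted p = 0.52), and Marchf1, a ligase that removes class II from the surface, by -0.40 (adjusted p = 0.66).

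Other genes of antigen presentation gave no calls. Over all genes 0.492% were called, so 0 calls in lists of this size say little, and 7.44% had an unadjusted p under 0.05. Of 14 MHC class I and immunoproteasome genes 0 passed in limma and 3 had an unadjusted p under 0.05, with a median difference of 0.16. Of 15 costimulation and checkpoint genes 0 passed and 3 had an unadjusted p under 0.05, with a median of 0.29. Every P5 array lay above every P4 array in 4 of the 14 and 1 of the 15, against 6.33% of all genes. Tap1, a peptide transporter of the class I pathway, differed by 0.68 (95% interval 0.24 to 1.12, adjusted p = 0.26). Cd274, which encodes the checkpoint ligand PD-L1, differed by 1.02 (95% interval 0.46 to 1.58, adjusted p = 0.11), with P4 arrays from 6.00 to 6.79 and P5 arrays from 6.75 to 7.92. Cd80, a costimulator, stood at 7.13 ± 0.28 and 7.62 ± 0.42 (adjusted p = 0.78).

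**Figure D2:**
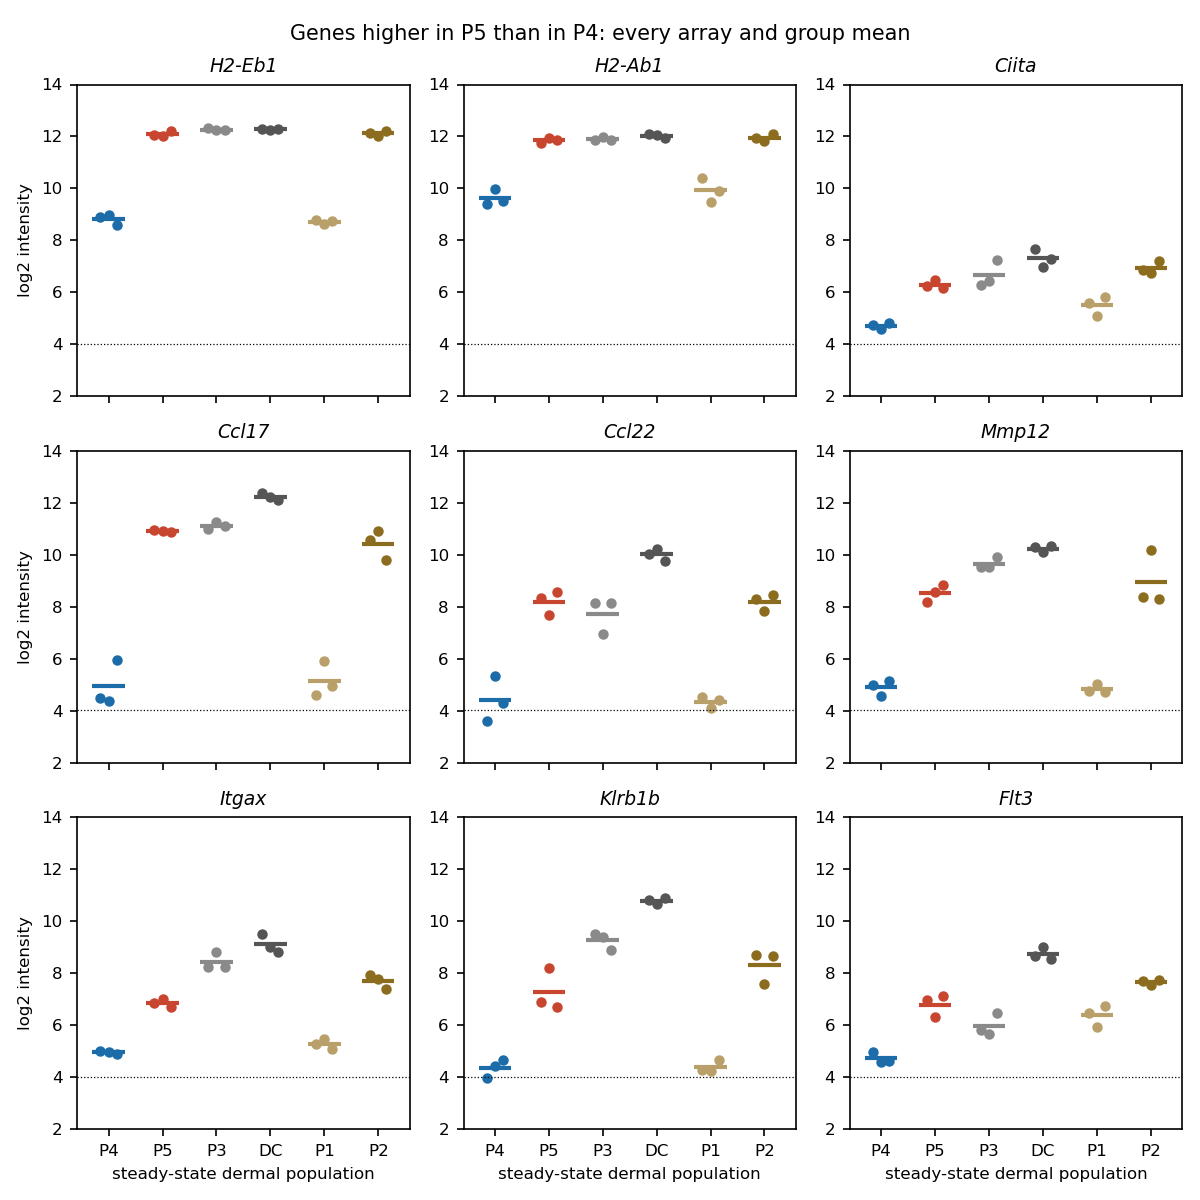
Log2 intensity (y) of 9 genes higher in P5 than in P4, in every array (points) of the 6 steady-state dermal populations (x), with group means as bars and the low signal level of 4.02 as a dotted line. In each panel the 3 P5 arrays lie above the 3 P4 arrays, and for H2-Eb1 and H2-Ab1 the P5 points lie level with those of P3, DC and P2.

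Among secreted signals, Ccl17 showed the largest difference of any gene. CCL17 and CCL22 are ligands of the receptor CCR4 and attract T cells that carry it. Ccl17 measured 4.49, 4.38 and 5.95 in the P4 arrays and 10.94, 10.92 and 10.86 in the P5 arrays. P4 replicate 3 stood above the other P4 arrays, yet far below every P5 array, and the difference was 5.96 (SE 0.30, 62.4-fold, adjusted p = 5.7e-14). Ccl22 measured 3.61, 5.35 and 4.30 in P4 and 8.32, 7.69 and 8.57 in P5, a rise of 3.78 (SE 0.35, 13.7-fold, adjusted p = 3.8e-08). For both genes P5 was close to P3 (11.12 ± 0.12 and 7.73 ± 0.69) and below DC (12.24 ± 0.14 and 10.01 ± 0.24). Cxcl9, an interferon-induced ligand of CXCR3, measured 6.60, 5.23 and 7.56 in P4 and 10.33, 9.40 and 8.22 in P5 (2.85, SE 0.55, 7.21-fold, adjusted p = 0.0064). The arrays did not overlap, but the call was lost without P4 replicate 2 (2.23, adjusted p = 0.077) and without P5 replicate 1 (2.35, adjusted p = 0.064).

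The promoter of Ccl17 is shown because it holds letters of the type that STAT6, a factor of interleukin-4 signalling, binds, spelled TTCNNNNGAA, a motif that reads the same on both strands. The window is chr8:94810283-94810452 on the plus strand of GRCm38.p6 from RefSeq, it ends at the base before the start site, and the match at -154 is in capitals.
Ccl17: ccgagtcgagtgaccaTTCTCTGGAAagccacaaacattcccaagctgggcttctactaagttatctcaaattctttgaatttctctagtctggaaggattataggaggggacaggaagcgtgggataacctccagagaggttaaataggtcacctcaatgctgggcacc
These letters lay in the 250 bases before the start in 5.85% of all windows, in 5 of 62 windows of risen genes (8.06%) and in 5 of 37 of fallen genes (13.5%). Like the Y box, the match is a description only.

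Of 30 chemokine genes measured 3 rose and 0 fell, against 0.291% and 0.201% of all genes, with a median difference of 0.14. Ccl5, which attracts T cells, missed the threshold although its arrays did not overlap, at 7.56, 9.13 and 8.81 in P4 and 9.59, 11.10 and 10.95 in P5 (2.05, 95% interval 0.81 to 3.30, adjusted p = 0.19). Ccl8, a chemokine gene chosen here after its values were seen, was near the top of the range in both populations (12.23 ± 0.16 and 12.17 ± 0.11). Of 19 genes of type 2 activation, which responds to interleukin-4 and interleukin-13, 2 rose (against 0.291% of all genes) and 0 fell. Those 2 were Ccl17 and Ccl22, and the list median was 0.42. Arg1, a classical member that encodes arginase, stood at 3.84 in P4 and 4.65 in P5 (0.81, adjusted p = 0.067). Retnla and Mgl2 were high in both populations, at 10.86 ± 0.02 and 10.76 ± 0.07 in P4 and at 11.13 ± 0.10 and 11.18 ± 0.27 in P5, with adjusted p = 0.98 and 0.92.

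Il1b, the gene of the inflammatory cytokine interleukin-1 beta, rose in P5. It measured 8.46, 8.43 and 8.39 in P4 and 9.94, 10.31 and 10.67 in P5, a difference of 1.88 (SE 0.31, 3.68-fold, adjusted p = 0.00091). Il1r2, which encodes a decoy receptor that binds interleukin-1 without signalling, rose as well, from 5.11, 4.96 and 6.23 to 7.57, 7.99 and 8.18 (2.48, SE 0.24, 5.58-fold, adjusted p = 8.8e-08). Both genes lay higher in P3 and DC than in P5, Il1r2 at 8.85 ± 0.36 and 10.15 ± 0.14. Il1b was the 1 gene called of 25 inflammatory mediators, whose median difference was 0.36. Ptgs2, the inducible enzyme of prostaglandin synthesis, went from 8.75 to 10.21 (95% interval of the difference 0.44 to 2.48, adjusted p = 0.33).

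Signalling lists held single calls. Of 15 NF-kB targets Nfkbie, an inhibitor of NF-kB, rose by 1.01 (SE 0.20, adjusted p = 0.0073) and 0 fell, with a list median of 0.33. That call was lost without P4 replicate 1 or without P4 replicate 3, with an adjusted p of at most 0.086. Of 24 immediate early genes, which also answer to tissue dissociation, Nr4a3, an orphan nuclear receptor gene, rose from 7.35, 6.54 and 6.48 to 8.82, 8.61 and 9.08 (2.04, SE 0.30, adjusted p = 0.00015), and the list median was -0.02. Of 23 interferon response genes 0 passed in limma and 1 had an unadjusted p under 0.05 (median 0.30). Of 37 myeloid transcription factors 0 passed and 6 had an unadjusted p under 0.05 (median 0.04), beside 7.44% of all genes. Bhlhe41, a repressor gene, stood at 6.76 ± 0.88 in P4 and 5.09 ± 0.85 in P5 without passing (adjusted p = 0.32).

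Of 37 growth factor and matrix genes 4 rose and 0 fell, against 0.291% and 0.201% of all genes. The median difference was 0.22, and all 4 risen genes encode proteases. Mmp12, macrophage elastase, measured 5.00, 4.58 and 5.13 in P4 and 8.18, 8.57 and 8.84 in P5, a rise of 3.63 (SE 0.33, 12.4-fold, adjusted p = 2.3e-08). Mmp9, a gelatinase, measured 5.22, 4.70 and 5.38 in P4 and 6.72, 7.28 and 6.37 in P5 (1.69, SE 0.24, 3.23-fold, adjusted p = 6.2e-05). Among the 6 dermal groups the Mmp9 level of P5 was the highest and that of P4 the next, with means from 3.84 to 4.26 in P1, P2, P3 and DC. Mmp25, a membrane-anchored metalloprotease, rose by 1.87 (SE 0.43, adjusted p = 0.035). Adam8, a membrane protease, rose by 1.18 (SE 0.25, adjusted p = 0.014). Both of these calls were lost without P4 replicate 1, P5 replicate 2 or P5 replicate 3, that of Mmp25 also without P4 replicate 2 and that of Adam8 without P4 replicate 3, with adjusted p of up to 0.26 for Mmp25 and 0.15 for Adam8. The Mmp25 call was also lost with array weights (adjusted p = 0.09), and its difference was 2.60 without P4 replicate 3, the highest P4 array.

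Of 23 genes known from conventional DC 6 rose and 0 fell, against 0.291% and 0.201% of all genes. The list median was 0.39, and 4 of the 23 were under the low signal level in both populations. Itgax, which encodes the integrin chain CD11c, measured 5.00, 4.98 and 4.87 in P4 and 6.86, 6.99 and 6.71 in P5, a rise of 1.90 (SE 0.20, 3.74-fold, adjusted p = 3.4e-07). Flt3, the receptor of the growth factor that DC development needs, measured 4.98, 4.60 and 4.61 in P4 and 6.95, 6.31 and 7.12 in P5 (2.06, SE 0.33, 4.18-fold, adjusted p = 0.00071). Ccr7, whose receptor guides cells to lymph nodes, measured 5.77, 6.19 and 5.80 in P4 and 8.58, 8.07 and 8.27 in P5 (2.39, SE 0.27, 5.23-fold, adjusted p = 1.3e-06). In each of the 3 genes every P5 array lay above every P4 array and below every DC array. Klrb1b, a lectin-like receptor gene, rose by 2.92 (SE 0.32, 7.59-fold, adjusted p = 1e-06), from 3.98, 4.43 and 4.65 to 6.90, 8.21 and 6.71, and stood at 10.80 ± 0.10 in DC. Napsa, an aspartic protease gene, rose by 1.97 (SE 0.23, adjusted p = 2.5e-06), and Gpr132, a receptor gene, by 1.02 (SE 0.23, adjusted p = 0.035). The Gpr132 call was lost without P4 replicates 1, 2 or 3 or P5 replicates 2 or 3, and with array medians centred (adjusted p of up to 0.18).

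The mean of these 23 genes was 5.50 to 5.62 in the P4 arrays, 6.20 to 6.26 in the P5 arrays and 7.35 to 7.48 in the DC arrays, with P3 at 6.49 to 6.55. Zbtb46, a transcription factor gene of conventional DC, stood at 5.25 ± 0.41 and 5.84 ± 0.11 (adjusted p = 0.21). Dpp4, a protease gene of DC, was near the low signal level in both, at 3.97 ± 0.37 and 4.27 ± 0.31, against 7.55 ± 0.27 in DC. Kmo, an enzyme gene of tryptophan breakdown, stood at 5.04 ± 0.78 and 5.42 ± 0.79, against 7.05 ± 0.62 in DC. Cd209a, also counted among the DC markers, was instead high in both populations, at 9.59 in P4 and 9.64 in P5. The mean of 11 Langerhans cell and cDC1 genes was 4.69 to 4.98 in the P4 arrays and 5.01 to 5.04 in the P5 arrays, and Cd207, which encodes langerin, stood at 3.69 ± 0.14 and 4.64 ± 0.71 (adjusted p = 0.3). Whether DC or Langerhans cells among the sorted P5 cells had a part in the rises was not tested. In bulk RNA, fewer cells that make a transcript and less of it per cell cannot be told apart.

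Defining macrophage genes were high in both populations, as labelled. Csf1r, the receptor gene of the growth factor of macrophages, measured 11.68 ± 0.09 in P4 and 11.50 ± 0.12 in P5, with a 95% interval of the difference from -0.56 to 0.21. Adgre1, which encodes F4/80, measured 10.46 ± 0.11 and 10.55 ± 0.10, and C1qa, a chain gene of complement C1q, 11.70 ± 0.10 and 11.57 ± 0.12. Mertk, a receptor gene for the uptake of dead cells, stood at 8.27 ± 0.84 and 7.58 ± 1.15, against 3.84 ± 0.34 in DC. The mean of 23 monocyte origin genes was 6.66 to 7.45 in the P4 arrays and 6.85 to 7.47 in the P5 arrays, against 10.15 in P1, and 2 of them were under the low signal level in both populations. Among them Vcan, a proteoglycan gene, stood at 4.21 ± 0.11 and 4.39 ± 0.14 against 9.52 ± 0.33 in P1, whereas Ccr2 was well above the low signal level. Of 32 macrophage core genes 0 rose and 1 fell, with a median of -0.27. That gene was Fer, which encodes a tyrosine kinase (-1.44, SE 0.27, adjusted p = 0.0046), and its call was lost without P4 replicate 2 or P5 replicate 2 (adjusted p of up to 0.068).

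The other genes of the gate differed less than the class II genes. Fcgr1, which encodes CD64, measured 8.53, 8.54 and 8.15 in P4 and 8.97, 9.35 and 8.10 in P5 (0.40, 95% interval -0.30 to 1.10, adjusted p = 0.92). Itgam, which encodes CD11b, differed by 0.18 (95% interval -0.27 to 0.63). Ccr2 RNA was measured in cells sorted as CCR2-, at 7.60, 8.62 and 8.19 in P4 and 9.13, 9.58 and 8.73 in P5 (1.01, 95% interval 0.45 to 1.57, adjusted p = 0.11), and stood at 10.67 ± 0.06 in P3. Cd24a, which encodes CD24, differed by 1.50 (95% interval 0.51 to 2.50, adjusted p = 0.28), with arrays from 4.66 to 6.89 in P4 and from 6.54 to 8.03 in P5, and passed without P4 replicate 2 (2.16, adjusted p = 0.025).

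Further large rises were in genes of receptors, adhesion and metabolism. P2ry10, a receptor gene for lysophosphatidylserine, was under the low signal level in P4, at 3.24, 2.90 and 3.06, and measured 5.97, 5.68 and 6.06 in P5 (2.83, SE 0.38, adjusted p = 2.5e-05). Adam23, an adhesion gene of the ADAM family, went from 3.85, 3.82 and 4.17 to 7.04, 5.96 and 7.12 (2.76, SE 0.32, adjusted p = 2.5e-06), again from low signal. Cytip, which encodes a partner of cytohesins that loosens adhesion, rose by 2.46 (SE 0.29, adjusted p = 2.5e-06), from 6.87 ± 0.21 to 9.33 ± 0.49. Cd7, a surface glycoprotein gene known from lymphocytes, rose from 4.53 ± 0.24 to 7.23 ± 0.51 (2.70, SE 0.50, adjusted p = 0.0034). Aldoc, a form of the glycolytic enzyme aldolase, rose by 1.95 (SE 0.33, adjusted p = 0.0015) and was the 1 gene called of 17 glycolysis genes, whose median was 0.05. Clec7a, which encodes the beta-glucan receptor Dectin-1, was the 1 called of 27 C-type lectins (median 0.02), with a rise of 1.33 (SE 0.27, adjusted p = 0.0084). Its call was lost without P4 replicate 1 (adjusted p = 0.12) and without P5 replicate 2 (adjusted p = 0.14). AA467197 rose by 2.97 (SE 0.65, adjusted p = 0.023). That call did not hold without P4 replicate 1, P4 replicate 3, P5 replicate 1 or P5 replicate 3 (adjusted p of up to 0.13).

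Among the falls, Slc40a1 changed most. Its product, ferroportin, exports iron from cells. It measured 6.92, 5.89 and 7.0 in the P4 arrays and 3.57, 3.74 and 4.12 in the P5 arrays, a difference of -2.79 (SE 0.34, adjusted p = 5.9e-06). The P5 mean of 3.81 was under the low signal level, as were those of P3, DC, P1 and P2, which ran from 3.43 to 3.69. It was the 1 gene called of 20 iron and heme genes, whose median was -0.18. Vsig4, a complement receptor gene of resident macrophages, measured 5.28, 5.18 and 4.59 in P4 and 3.17, 3.09 and 3.06 in P5 (-1.91, SE 0.16, adjusted p = 7.4e-09), with the other 4 dermal groups at means from 2.93 to 3.07. Cd55, which shields cells from complement, measured 6.66, 6.57 and 6.12 in P4 and 4.47, 4.41 and 4.14 in P5 (-2.11, SE 0.44, adjusted p = 0.014). Its call was lost without P4 replicate 1, P4 replicate 2, P5 replicate 2 or P5 replicate 3, with an adjusted p of at most 0.088. In the complement list of 19 genes Itgax rose, Vsig4 and Cd55 fell, and the median was -0.14.

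Sema6a, a membrane-bound semaphorin gene, measured 7.61, 6.88 and 6.38 in P4 and 4.20, 4.64 and 5.16 in P5, a fall of 2.29 on the log2 scale (4.89-fold, adjusted p = 2.2e-08). Cmah, whose enzyme makes the sialic acid Neu5Gc, measured 7.27, 6.90 and 6.44 in P4 and 4.90, 4.60 and 4.73 in P5 (-2.12, SE 0.23, 4.36-fold, adjusted p = 8.6e-07). Cpne8, which encodes a calcium-binding copine, went from 6.15 ± 0.43 to 4.10 ± 0.38 (-2.05, SE 0.29, 4.13-fold, adjusted p = 6.2e-05). In all 3 genes every P5 array lay below every P4 array. Enpep, an aminopeptidase gene of angiotensin processing, measured 8.84, 7.97 and 7.90 in P4 and 6.77, 6.33 and 5.83 in P5 (-1.93, SE 0.20, 3.8-fold, adjusted p = 3.7e-07). P5 thus stood below P4 but above the other 4 dermal groups, whose means ran from 3.46 to 3.62. Maoa, which encodes monoamine oxidase A, and Tslp, a cytokine gene best known from epithelium, gave the same order of levels and were chosen after their values were seen. Maoa stood at 7.86 ± 0.29 in P4, 6.64 ± 0.40 in P5 and from 4.45 to 4.61 elsewhere (adjusted p = 0.0054). Tslp stood at 6.69 ± 0.60, 5.80 ± 0.28 and from 2.86 to 3.05 (adjusted p = 0.021). The Maoa call was lost without P4 replicate 1 or P5 replicate 3 (adjusted p of up to 0.082), and that of Tslp without P4 replicate 3, P5 replicate 1 or P5 replicate 3 (up to 0.21).

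**Figure D3:**
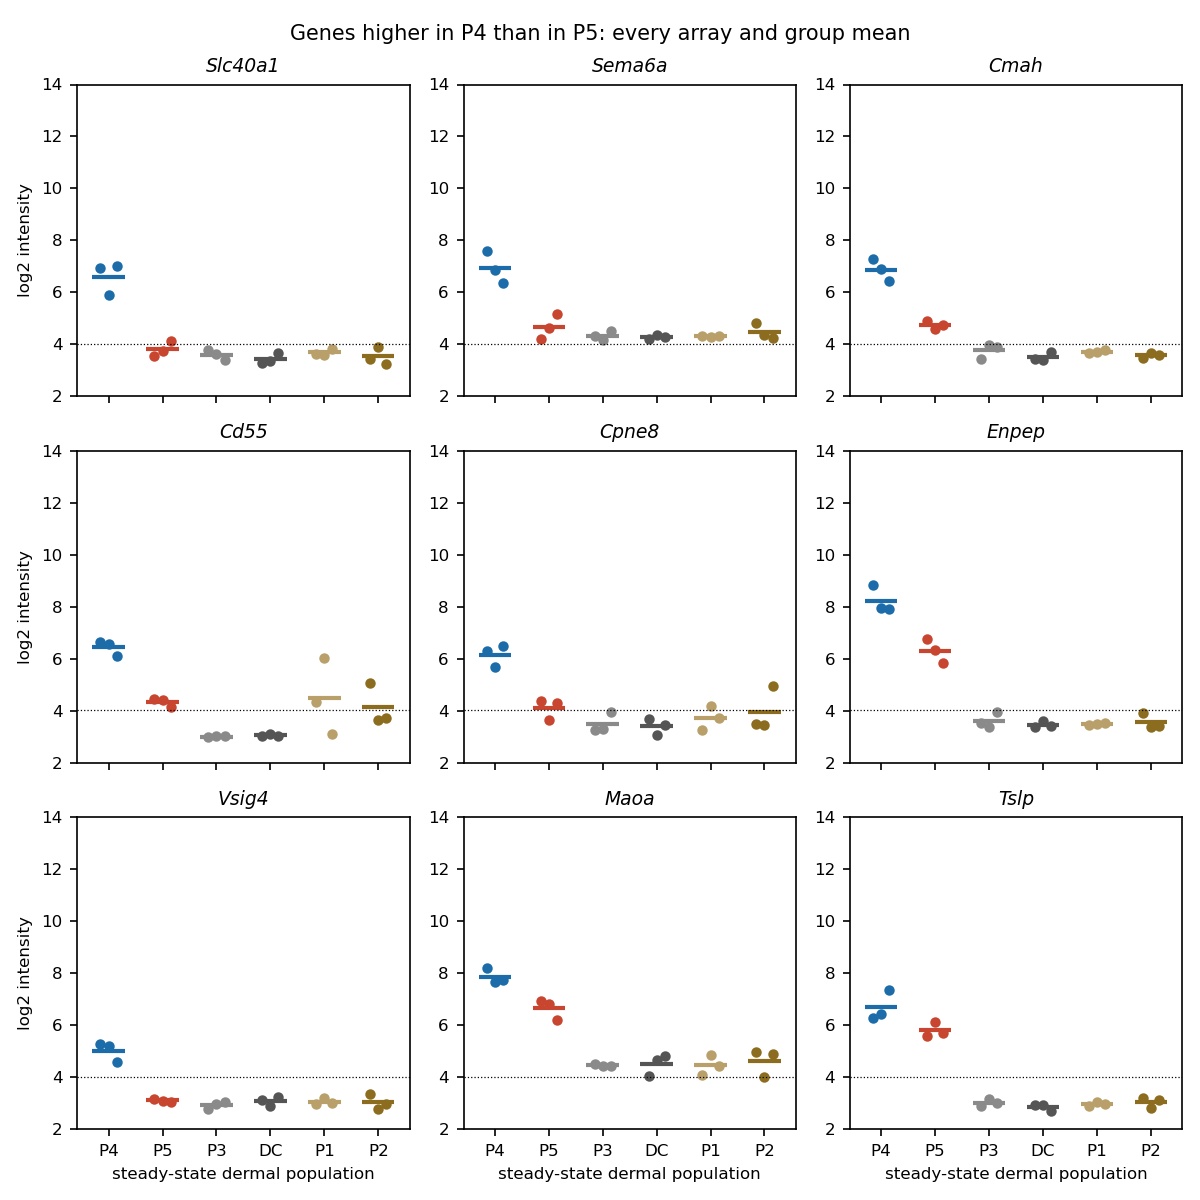
Log2 intensity (y) of 9 genes higher in P4 than in P5, in every array (points) of the 6 steady-state dermal populations (x), with group means as bars and the low signal level of 4.02 as a dotted line. Slc40a1 and Vsig4 lie above the line in P4 and with their group means below it elsewhere, whereas Enpep, Maoa and Tslp lie between P4 and the other groups in P5.

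Smaller falls included genes of varied function. Uaca, which encodes a coiled-coil protein, fell from 6.60 ± 0.12 to 4.92 ± 0.39 (adjusted p = 1e-05), and Uck1, a pyrimidine nucleoside kinase gene, from 6.99 ± 0.16 to 5.32 ± 0.82 (adjusted p = 0.0026). Hgsnat, a lysosomal enzyme gene of heparan sulfate breakdown, fell from 9.77 ± 0.42 to 8.23 ± 0.42 (adjusted p = 0.0033), and Cdr2 from 7.66 ± 0.37 to 6.21 ± 0.70 (adjusted p = 0.0023). Pdc, known from the retina, fell from 4.90 ± 1.22 to 3.33 ± 0.04, a level of low signal, and its spread in P4 came from replicate 1 at 6.29, beside 4.39 and 4.03, without which the difference was -0.88. Cd4 and B3gnt3 were the weakest of these calls, at adjusted p = 0.05 (under the threshold before rounding) and 0.049. Cd4 measured 7.46, 7.93 and 8.02 in P4 and 7.21, 5.98 and 5.79 in P5. Both calls were lost without any of the 3 P4 arrays, without P5 replicate 2 or 3, with quantile normalization or centred medians, and with the replicate block over all arrays, with adjusted p of up to 0.31 for Cd4 and 0.4 for B3gnt3.

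Genes of resident and perivascular macrophages leaned towards P4, with few calls. Of 32 measured 0 rose and 2 fell, Vsig4 and Slc40a1, against 0.291% and 0.201% of all genes. The median difference was -0.37 beside 0.01 over all genes. In 13 of the 32 every P5 array lay below every P4 array, against 4.78% of all genes, and in 2 every P5 array lay above. Fcna, a ficolin gene, measured 8.86, 8.27 and 8.62 in P4 and 8.01, 6.96 and 7.15 in P5 (-1.21, 95% interval -1.83 to -0.60, adjusted p = 0.066). Colec12, a scavenger receptor gene, stood at 8.86 ± 0.55 and 7.36 ± 0.51 (adjusted p = 0.23), and Ltc4s, an enzyme gene of leukotriene synthesis, at 8.40 and 7.30 (adjusted p = 0.27). Lyve1, a hyaluronan receptor gene chosen after its values were seen, measured 10.70, 10.08 and 10.18 in P4 and 9.53, 9.26 and 8.25 in P5 (-1.31, 95% interval -2.34 to -0.27, adjusted p = 0.46). Its P5 mean of 9.01 was far from that of DC, 5.02 ± 0.45. The list mean ran from 9.22 to 9.63 in P4 arrays, from 8.76 to 9.23 in P5 arrays and from 6.64 to 6.89 in DC.

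Unlike the glycolysis and the iron and heme lists, each with 1 call, 5 further lists of basic cell functions gave 0 calls in limma, beside 7.44% of all genes at an unadjusted p under 0.05. The genes under that unadjusted p were 3 of 36 for lysosome and cathepsins (median -0.18), 1 of 26 for the respiratory chain (median -0.11) and 1 of 15 for cholesterol synthesis (median 0.05). They were 4 of 26 for the cell cycle (median 0.07) and 2 of 24 for lipid handling (median 0.14). Among receptors, 18 Toll-like receptor genes and partners (median 0.07), 10 Fc receptor genes (median 0.11) and 31 scavenger and efferocytosis receptor genes (median 0.09) also gave 0 calls, with 1, 2 and 8 genes under it. Of the 98 changed genes, 30 were on at least 1 of the lists and 68 on none.

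Transcripts of other skin cells were measured in both populations. The mean of 15 keratinocyte genes was 6.56 to 7.17 in the P4 arrays and 6.47 to 7.59 in the P5 arrays, and that of 12 fibroblast genes 6.05 to 6.38 and 6.00 to 6.50. Krt5, a basal keratinocyte gene, stood at 10.00 ± 0.45 and 9.85 ± 0.68. The mean of 9 T and innate lymphoid cell genes was 5.10 to 5.54 in P4 and 5.26 to 5.64 in P5. Of these, Cd3d and Cd3g were under 4.02 in every P4 and P5 array and Cd4 was above it in all 6. Only 2 of the 9 genes had means under that level in both populations. The cDC1 genes Xcr1 and Clec9a were under it as well, but only 4 of the 11 Langerhans cell and cDC1 genes had means under it in both. Mast cell genes had higher levels in P4, and 0 of 11 passed in limma, with 6 at an unadjusted p under 0.05, beside 7.44% of all genes. Mcpt4, a mast cell protease gene, measured 8.76, 9.44 and 10.28 in P4 and 6.32, 5.55 and 7.74 in P5 (-2.95, SE 1.05, adjusted p = 0.36). Cpa3 measured 6.14, 8.05 and 8.63 in P4 and 3.68, 4.29 and 6.83 in P5 (-2.67, adjusted p = 0.45), and Cma1 differed by -1.86 (adjusted p = 0.079). The mean of the 11 genes, which include basophil genes, was 4.62 to 5.89 in P4 and 3.97 to 4.77 in P5, 4 of them were under the low signal level in both, and their part in the falls was not tested. Among the 13 lists of other cells the 1 call was Cd4, on the T cell list.

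**Figure D4:**
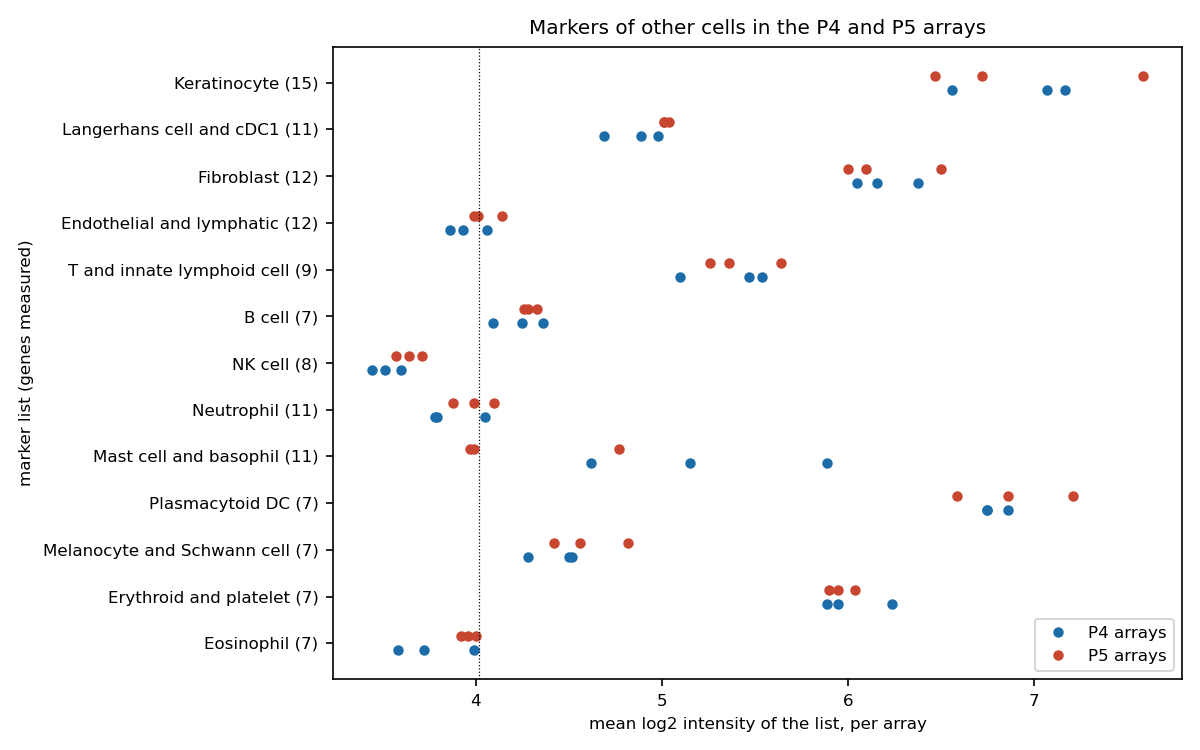
Mean log2 intensity (x) of 13 lists of marker genes of other cells (y, with the number of genes measured) in each P4 array (blue) and P5 array (red), with the low signal level as a dotted line. The points of most lists overlap between the populations, and those of mast cells run from 4.62 to 5.89 in P4 and from 3.97 to 4.77 in P5.

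P2 and P1 are Ly6C-high cells of the same dermis, MHCII+ and MHCII-, and their arrays are not used in P5 minus P4. Their gates also differ in CD64, which is low in P1 and positive in P2, so that MHC class II and CD64 cannot be told apart in P2 minus P1 or in its difference from P5 minus P4. Between them 416 genes changed (2.09%), 268 higher in P2 (1.34%) and 148 lower (0.742%). Of the 98 genes that changed between P5 and P4, 24 changed there too, which is 24.5% of the 98 and 5.77% of the 416. In 22 the direction was the same, and all 22 were rises, among them H2-Eb1, H2-Aa, H2-Ab1, Cd74, H2-DMa, Ciita, Ccl17, Ccl22, Cxcl9, Ccr7, Itgax, Flt3, Klrb1b, P2ry10, Mmp12 and Mmp25. Ccl17 rose by 5.28 in P2 over P1 (adjusted p = 9.3e-13), from 5.16 ± 0.69 to 10.43 ± 0.57, and Mmp12 by 4.12 (adjusted p = 9.3e-10). H2-Eb1 rose by 3.40 there (adjusted p = 5.1e-17), and its P5 minus P4 less its P2 minus P1 was -0.14 (SE 0.18). Of the 58 genes that rose in P5, 44 (75.9%) had a difference above 0 in P2 minus P1, against 46.7% of all genes. P1 replicate 2 stood apart with a fibroblast list mean of 9.80, and without it 21 genes changed in both, 19 in the same direction. That list mean was also 7.65 to 7.95 in the P2 arrays, against 6.15 in the lowest P1 array. In the P4 and P5 arrays it was 6.05 to 6.38 and 6.00 to 6.50. The part of fibroblast RNA in P2 minus P1 was not tested.

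None of the 40 genes that fell in P5 passed in P2 minus P1 by limma. Over all genes 2.09% passed there, so 0 calls among 40 say little. At an unadjusted limma p under 0.05 there were 2 higher and 0 lower, beside 11% of all genes in either direction. The median level of the 40 falls was 6.47 in P4, 4.68 in P5, 4.26 in P3, 4.01 in DC, 4.20 in P1 and 4.19 in P2. For 14 of the 40 the group mean was under the low signal level in all of P1, P2, P3 and DC, as it was for 5815 of all 19937 genes and for 0 of the 58 rises. The 58 risen genes had median levels of 5.99 in P4, 7.79 in P5, 8.45 in P3, 9.10 in DC, 7.35 in P1 and 8.55 in P2. The choice of these genes sets their P5 median above that of P4. It lay below those of P3, P2 and DC and above that of P1.

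The difference between both contrasts was tested as an interaction, and 181 genes passed (0.908%). In 72 of them P5 minus P4 was higher than P2 minus P1 (0.361%), and in 109 it was lower (0.547%). Of the 58 rises 14 were among the 72, and of the 40 falls 17 were among the 109, counts that the choice of genes by P5 minus P4 favours. Among the 14, Il1r2 stood at 9.60 ± 0.14 in P1 and 9.79 ± 0.35 in P2 (adjusted p = 0.88), and its interaction was 2.29 (SE 0.34, adjusted p = 0.00018). Cytip, at 10.91 in P1 and 10.72 in P2, and Napsa, at 10.05 and 9.69, had interactions of 2.66 (SE 0.41, adjusted p = 0.00026) and 2.33 (SE 0.32, adjusted p = 8.8e-05). B4galnt1 and Gcnt2, genes of glycan-building enzymes chosen after their values were seen, rose in P5 by 1.26 and 1.09 but fell in P2 by 0.84 and 1.34. Their interactions were 2.10 and 2.43, with adjusted p = 0.00019 and 4.9e-05, and the rise of Gcnt2 in P5 was lost without P4 replicates 1 or 3 or P5 replicates 2 or 3 (adjusted p of up to 0.12). Among the 17, Sema6a had an interaction of -2.47 (SE 0.29, adjusted p = 7.5e-06) and Slc40a1 of -2.64 (SE 0.48, adjusted p = 0.0026). Without P1 replicate 2 the interaction gave 292 genes.

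**Figure D5:**
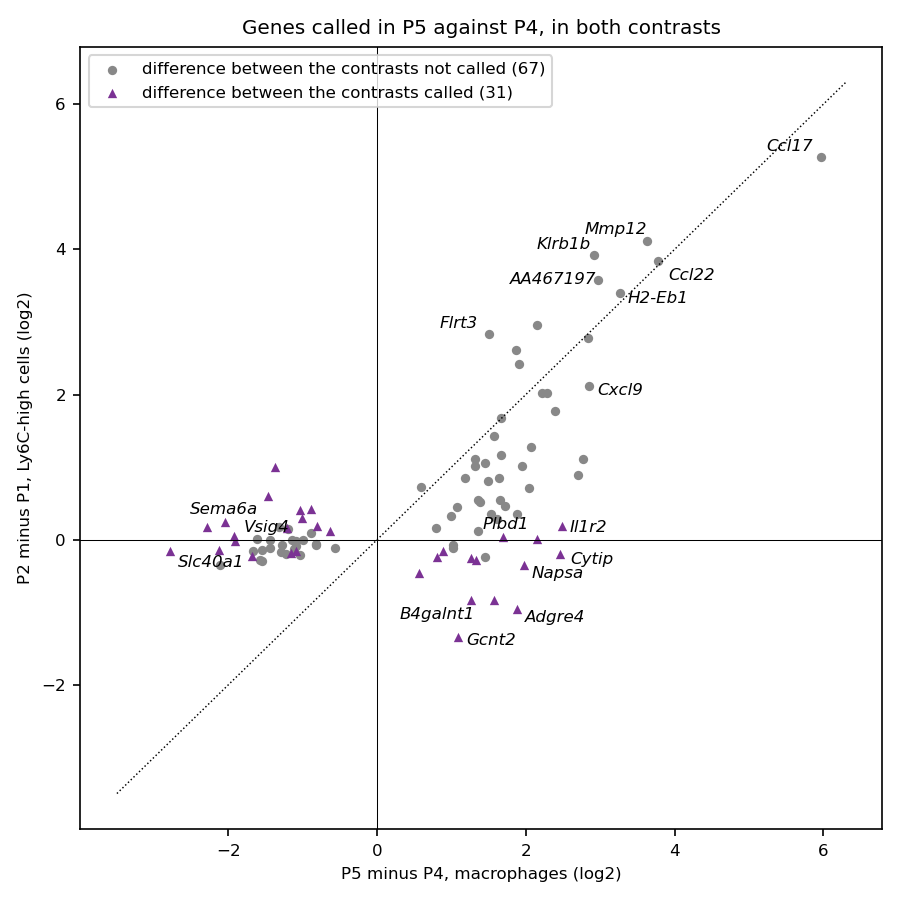
Log2 difference P5 minus P4 (x) against P2 minus P1 (y) for the 98 genes called in P5 minus P4, with purple triangles for the 31 genes whose interaction passed, grey points for the other 67 and a dotted line where both differences are equal. Ccl17, at 5.96 and 5.28, and H2-Eb1, at 3.26 and 3.40, lie near the line, and the falls lie near 0 or up to 1 above it on the y axis.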

How the data were processed

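RNA of sorted dermal cells was measured on 38 arrays in 13 groups, 3 each for P4 and P5. The authors deposited RMA values in log2, 1 per probe set; the submitters' processing notes also name affy, and give no version of either. No further scaling was applied. Of 34760 probe sets, 21640 with 1 gene symbol were kept (1321 had several and 11799 none), and 21553 were matched to RefSeq by gene identifier. Where a gene had several probe sets (954 genes), that of highest mean stood for it, giving 19937 genes.

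A mean per group was fitted in limma 3.58.1 (R 4.3.3) with 25 residual and 3.13 prior degrees of freedom. Tests were moderated, two-sided and adjusted by Benjamini-Hochberg over all genes. The 3 contrasts were P5 minus P4, P2 minus P1 and their difference. P4 and P5 array medians were 4.39 to 4.60, and correlations between arrays 0.958 to 0.966 within P4, 0.951 to 0.969 within P5 and 0.940 to 0.969 between them. The number of arrays limits the precision. The labels name 3 chip batches without assigning arrays, so batch was not fitted. Tables and plots used Python 3.11.15, pandas 2.3.3, numpy 2.4.6 and matplotlib 3.10.9, and the fit was tested on simulated data.

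The populations and gene lists were chosen with earlier results of these data known. The lists, 31 of myeloid genes and pathways and 13 of other cells, were written from general knowledge, and 727 listed genes were measured and 60 had no value. Genes named are the 15 largest rises and falls whose arrays do not overlap, up to 6 members per list by adjusted p (3 by level for other cells), all class II and gate genes, the cell type markers, and 6 interactions in each direction. Others are marked as chosen after their values were seen. Alternatives were normalization, filters, probe set choice, variance models, blocks, the arrays fitted and leaving out arrays.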

Additional observations from a re-analysis of the deposited data

Results flagged for a closer look

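The difference P5 minus P4 in Ly6C-negative macrophages and the difference P2 minus P1 in Ly6C-high cells, whose gates differ in CD64 as well as in MHC class II, were unequal by a test of the difference itself in 181 genes. The 6 most negative differences of contrasts all belonged to genes that were high in both macrophage populations and lower in P1. Retnla, a secreted protein gene of type 2 activation, gave -6.32, with means of 10.86 in P4, 11.13 in P5, 4.04 in P1 and 10.63 in P2. Mgl2, a galactose-binding lectin gene, gave -5.76 (10.76, 11.18, 4.73 and 10.92 in the same order). Cd209d, a relative of DC-SIGN, gave -4.98 (11.29, 11.31, 4.97 and 9.96), and Cd209a gave -3.52 (9.59, 9.64, 6.40 and 9.96). Cd163, the hemoglobin scavenger receptor gene, gave -4.65 (10.68, 10.48, 4.25 and 8.70), and Clec10a, another galactose-binding lectin gene, gave -4.40 (10.34, 9.58, 4.84 and 8.48).

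The 6 most positive differences were those of genes higher in P1 than in P2. Treml4, a receptor gene, gave 4.22, with low signal in P4 and P5 (3.49 and 3.60) and means of 8.60 in P1 and 4.49 in P2. Ly6a2 gave 3.78 (3.41, 3.72, 8.84 and 5.37), and Pglyrp1, which encodes a peptidoglycan-binding protein, gave 3.49 (4.60, 4.42, 8.91 and 5.25). Pilrb1, an activating receptor gene, gave 4.37 (4.72, 6.34, 8.93 and 6.19). Klra2, a receptor gene of the Ly49 family, gave 3.37 (3.99, 5.34, 9.07 and 7.06), and Fcgr4, an Fc receptor gene, gave 3.14 (4.69, 6.15, 5.97 and 4.29). In these last 3 genes every P5 array lay above every P4 array without passing in P5 minus P4 (adjusted p = 0.17, 0.13 and 0.24).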

How the results depend on the processing

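The 98 calls of P5 minus P4 became 19 when only the P4 and P5 arrays were fitted and 0 with the replicate block in that fit. The 416 of P2 minus P1 became 62 and 32, and the 181 of the interaction 47 and 55, in the same settings. These fits have fewer samples. Leaving out 1 array at a time gave 76 to 131 for P5 minus P4, 286 to 489 for P2 minus P1 and 135 to 292 for the interaction, the last without P1 replicate 2. With the replicate number as a block over all arrays, added after seeing the data, the counts were 101, 423 and 181. Over all groups of the series a replicate number joins arrays of different source numbers, so these counts cannot show whether a shared pool had an effect. Same-numbered P4 and P5 arrays deviated from their group means with correlations of 0.21, -0.00 and 0.12. P4 replicates 1, 2 and 3 deviated most like P5 replicates 1, 3 and 3. With 3 arrays per group these values cannot decide whether same-numbered arrays shared a pool, and the main fit did not pair them. With the source number as a random block over all arrays there were 98 calls in P5 minus P4, at a consensus correlation of 0.00329. Other settings gave 92 (medians centred) to 142 (array weights) calls in P5 minus P4, and 84 of the 98 were at least 2-fold. Under the 14 alternatives other than the 6-array fits, 51 of the 98 genes (34 rises, 17 falls) stayed called and 31 were lost only by leaving out 1 array, with 14 of the 98 not tested after the low value filter. None of the 98 changed sign in any setting run. In the 6-array limma fit without a block, 15 rises and 3 falls (Cd55, Cmah and Vsig4) of the 98 stayed called. Sema6a (adjusted p = 0.23), Enpep (0.3) and Slc40a1 (0.071) were among the falls that did not. Among the rises that did not were Il1r2 (0.16), Mmp9 (0.27), Klrb1b (0.15), Ccl22 (0.083), Flt3 (0.071) and Cd74 (0.071). Levels under 4.02 limit 5 rises and 10 falls, whose sizes are not exact.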

Other observations

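Some changed genes that no list holds had their own order of levels among the dermal groups, and all were chosen after their values were seen. P2ry14, a receptor gene for UDP-sugars, measured 6.11, 5.91 and 6.16 in P4 and 7.49, 7.15 and 7.70 in P5. Its P5 mean of 7.45 was above those of DC (6.56), P2 (5.75), P3 (5.63) and P1 (5.23), and its call (adjusted p = 0.019) was lost with array medians centred, without any of the 3 P4 arrays and without P5 replicate 1 or 3 (adjusted p of up to 0.13). Plbd1, a phospholipase-like gene, rose from 8.28 ± 0.61 in P4 to 10.43 ± 0.23 in P5 (adjusted p = 6.2e-08), beside 11.52 in P1 and 11.53 in P2. Adgre4, an adhesion receptor gene, rose from 4.70 ± 0.35 to 6.58 ± 0.96 (adjusted p = 0.0029), stood at 8.47 in P3, 9.22 in DC, 9.10 in P1 and 8.14 in P2, and was lost without P5 replicate 2 (adjusted p = 0.052). A4galt, a glycosyltransferase gene, fell from 7.22 ± 0.37 to 6.13 ± 0.30 (adjusted p = 0.014) and stood from 3.85 to 4.30 in the other 4 dermal groups. Its call was lost without P4 replicate 1, P5 replicate 1 or P5 replicate 2 (adjusted p of up to 0.17).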
